A study of Homo sapiens with 14 samples.

Results

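The EGFR family consists of receptor tyrosine kinases and the growth factors that activate them, and 9 of the 58434 gene symbols in the deposited count table were examined. They are the receptors EGFR, ERBB2 and ERBB3, the ligands AREG, EREG, HBEGF, TGFA and NRG1, and ERRFI1, a feedback inhibitor that binds the activated EGFR kinase. The genes were chosen by name, as receptors with long and ligands with shorter coding sequences in one signalling system, with earlier results of these data known, and EGFR was also singled out by the study on these same samples. EGFR was the only member that passed the test for a change with DAP5 silencing, in heavy polysomes and in heavy translation efficiency, and it was lower in both. This is 1 of 8 members tested, where 30.9% of all genes passed in heavy polysomes and 13.1% in heavy translation efficiency, and the call in translation efficiency was lost under most of the alternative settings.

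The cells were MDA-MB-231, an established triple-negative breast cancer line, carrying a lentiviral shRNA under doxycycline control, either against DAP5 (MB-231-shDAP5) or without a target (MB-231-shNSi). All cultures, controls included, were selected with puromycin, sorted for the red fluorescent reporter of the vector, and given doxycycline at 1 µg/ml for 6 days before lysis. DAP5, encoded by EIF4G2, is a homolog of the scaffold protein eIF4GI that lacks the binding site for the cap-binding protein eIF4E. The study gives a single hairpin sequence against DAP5, so in these libraries an effect of the hairpin itself and an effect of DAP5 loss cannot be told apart. With an siRNA against DAP5 the study reported moderately lower EGFR protein, and protein was not measured in these libraries. Each cell line was represented by 2 cultures, from which total mRNA, light polysome mRNA (few ribosomes per mRNA) and heavy polysome mRNA (many ribosomes per mRNA) were sequenced, and each shNSi culture also gave a moderate polysome library, so that 14 libraries were available. The shDAP5 light libraries carry the light label in their titles but the code that marks the moderate pool in the shNSi libraries, and were used as light. The shDAP5 total libraries are titled total polysome and were used as total mRNA.

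Receptors of this family pair with one another after ligand binding and signal through RAS-MAPK and PI3K-AKT. EGFR binds AREG, EREG, HBEGF and TGFA, ERBB3 binds neuregulins such as NRG1 and depends on a partner with an active kinase, and ERBB2 has no known ligand of its own. The ligands are made as membrane proteins and released by metalloproteases of the ADAM family. High EGFR with low hormone receptors is typical of basal-like breast cancer lines, among them MDA-MB-231.

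The libraries held between 25899838 and 30795910 counts each. Of the 13 markers fixed for MDA-MB-231, the 5 expected to be high were detected in every library, from SPARC at 54.1 to 457 CPM to VIM (vimentin) at 776 to 13991 CPM (library-scaled counts, with scaling factors by the trimmed mean of M-values, TMM). Of the 8 expected to be low or absent, PGR was at 0 in all 14 libraries and ESR1, CDH1 and FOXA1 stayed at or below 0.821 CPM, whereas the keratins KRT8 and KRT18 were at 142 to 1195 and 146 to 1145 CPM, above the lowest values of SPARC and CD44, GATA3 reached 16.8 CPM and EPCAM 6.27 CPM. PTPRC, a leukocyte marker, was at or below 0.210 CPM. EIF4G2 was 1442 and 1396 CPM in the total mRNA of the shNSi cultures and 541 and 749 CPM in that of the shDAP5 cultures. This is a log2 change of −1.11 (SE 0.18, adjusted p = 0.0172). The p comes from the quasi-likelihood F test in edgeR and is corrected over all genes by the Benjamini-Hochberg method. This holds for every adjusted p in the text unless another method is named. EIF4G2 did not pass in heavy polysomes (−0.86, SE 0.38, adjusted p = 0.0691) or in light polysomes (−1.33, SE 0.32, adjusted p = 0.430). The call in total mRNA rested in part on shDAP5 culture 1, without which the log2 change was −0.90. That call was also lost with limma (−1.08, adjusted p = 0.143) and with library sizes in place of TMM (−1.06, adjusted p = 0.0501).

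The members differ in how length is divided between coding sequence and untranslated regions (UTRs), in the GENCODE v29 annotation of GRCh38. EGFR (ENSG00000146648.17) lies at chr7:55019021-55211628 on the plus strand, and its principal mRNA has 9821 nucleotides in 28 exons, of which 3633 are coding and 6011 belong to the 3′ UTR. ERBB2 (chr17:39687914-39730426, plus strand) has a coding sequence of 3768 nucleotides in an mRNA of 4545, and ERBB3 (chr12:56076799-56103505, plus strand) 4029 in 5919. The coding sequences of the receptors are thus of like length, and EGFR stands apart from the other receptors by its 3′ UTR. Among the ligands, TGFA (chr2:70447280-70554193, minus strand) and EREG (chr4:74365143-74388751, plus strand) have short coding sequences of 483 and 510 nucleotides in long mRNAs of 4310 and 4619. HBEGF (chr5:140332843-140346631, minus strand) has 627 coding nucleotides in 2386, AREG (chr4:74445134-74455009, plus strand) 759 in 1240 and NRG1 1938 in an annotated mRNA of 2035, whose 3′ UTR of 5 nucleotides makes its length and its level per kb uncertain. ERRFI1 (chr1:8004404-8026308, minus strand) has 1389 coding nucleotides in 3104.

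Since DAP5 acts at translation initiation, the bases around the annotated start codon of the 3 receptors and of 2 ligands are shown, from 12 bases before the ATG (in capitals) to 15 bases after it, as read from the GENCODE v29 transcripts.
EGFR: cggggagcagcgATGcgaccctccgggacg
ERBB2: gcagtgagcaccATGgagctggcggccttg
ERBB3: ctctgcggagtcATGagggcgaacgacgct
HBEGF: cggtgcgggaccATGaagctgctgccgtcg
TGFA: cccgcccgtaaaATGgtcccctcggctgga
EGFR and ERBB3 have G and ERBB2, HBEGF and TGFA have A at the third base before the start codon, the position where a purine favours recognition. Of the 8 members read, 6 have a purine there, the exceptions being AREG and EREG. The leader of EGFR is 177 nucleotides long and holds no ATG before the start codon, whereas those of ERBB2 and ERBB3 hold 1 each and that of ERRFI1 holds 4. These are descriptions of the annotated mRNAs, and which start sites were used in these cells was not measured.

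To compare levels between genes, CPM were divided by mRNA length in kb. In the 4 total mRNA libraries ERRFI1 was the highest, at 53.9 to 86.9 CPM per kb, followed by HBEGF at 22.0 to 43.9 and NRG1 at 13.2 to 17.9. TGFA (11.9 to 14.5), EGFR (6.61 to 17.1) and ERBB2 (9.42 to 15.2) came next, and EREG followed at 5.47 to 8.60. The ranges of NRG1, TGFA, EGFR and ERBB2 overlapped, so their order is not set by these data, and those of EGFR and EREG overlapped as well. ERBB3 was far lower, at 0.599 to 0.871 CPM per kb, with 92 to 143 counts per library. AREG was close to absent, with 0 to 12 counts per library and 53 counts over all 14. AREGB, a second symbol for a near-identical copy of AREG, had 0 counts in every library. How reads that match both copies were assigned is not given in the sources used here, so the AREG level is uncertain, and AREG had too few counts to be tested after the filter. Where it was tested, with no filter and in light polysomes with light and moderate summed, it did not pass. EGFR-AS1, an antisense gene within EGFR, had 0 counts in every library.

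In control cells EGFR was the member most shifted toward heavy polysomes. Its levels in the shNSi cultures were 168 and 118 CPM in total mRNA, 86.6 and 52.6 in light polysomes, 95.6 and 83.7 in the moderate pool and 233 and 339 in heavy polysomes. The moderate pool was thus close to the light polysomes, and both heavy libraries stood above all other shNSi libraries. The log2 ratio of heavy to light EGFR mRNA was 1.43 in shNSi culture 1 and 2.69 in culture 2 (mean 2.06 ± 0.89, SD, n = 2), at the 90.7th percentile of the 15374 genes compared. ERBB2 (0.60 ± 0.13, SD, n = 2) and ERBB3 (0.58 ± 0.07, SD, n = 2) were shifted toward heavy polysomes to a lesser degree in both cultures.
Most ligands lay lower on the gradient. TGFA was the lightest member, with log2 heavy-to-light ratios of −1.33 and −0.77 in the shNSi cultures. EREG (−0.07 and −0.39), NRG1 (−0.07 and −0.59) and ERRFI1 (−0.28 and −0.48) were also below 0 in both, and HBEGF was on either side of it, at 0.56 and −0.36, in culture 1 slightly above ERBB2 and ERBB3. Both EGFR cultures lay above every other member on this ratio. Over 12471 genes with an annotated coding sequence, this ratio rose with coding length (Spearman's rho 0.646, across genes of the same libraries) and less with mRNA length (rho 0.457). In the shDAP5 cultures its rho with coding length was 0.290. For the ratio of heavy to total mRNA, rho with coding length was 0.640 in shNSi and −0.128 in shDAP5 cultures. The heavy pools of the cell lines thus differed in length profile over all genes, and the cause was not tested.

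**Figure D1:**
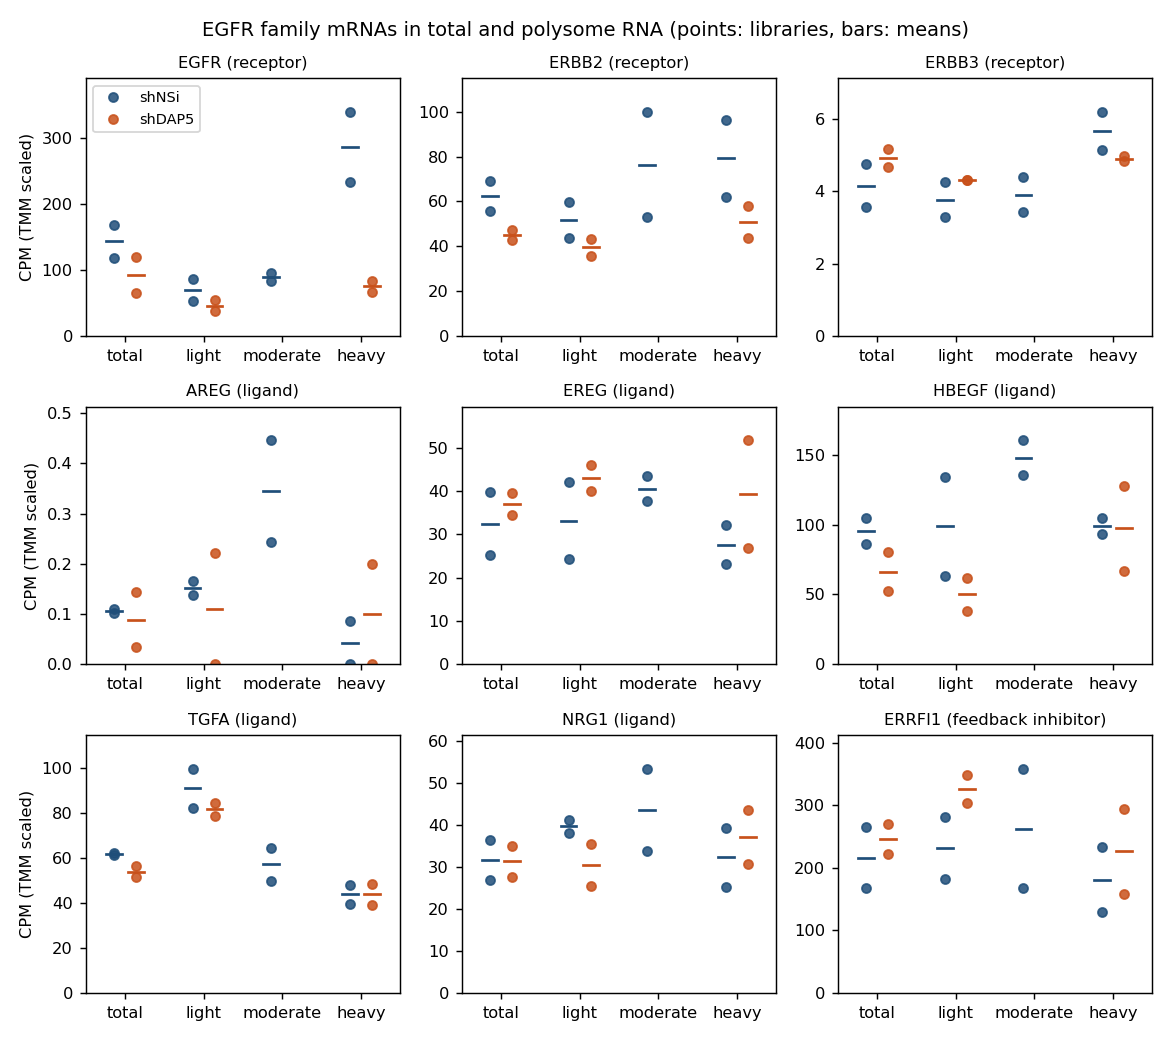
CPM of each of the 9 members (y axis, from 0, TMM scaled over the 14 libraries) in total mRNA and in light, moderate and heavy polysomes (x axis) of shNSi (blue) and shDAP5 (orange) cultures, with a point for each library and a bar for the mean of 2. EGFR is the only member whose heavy polysome libraries fall into 2 widely separated pairs, 233 and 339 CPM in shNSi and 83.9 and 67.2 CPM in shDAP5 cultures.

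The first comparison asked whether DAP5 silencing changed the amount of each mRNA. In total mRNA none of the 8 members tested passed the threshold of 0.05 on the adjusted p, where 0.354% of all genes did. EGFR was 168 and 118 CPM in shNSi and 64.9 and 119 CPM in shDAP5 cultures, so that the pairs overlapped and shDAP5 culture 1 stood alone below the other 3. In bulk RNA, fewer cells with an mRNA and less of it per cell cannot be told apart. Its log2 change was −0.61 (SE 0.29, adjusted p = 0.457), and it was −1.11 without shDAP5 culture 2 (adjusted p = 0.0179). ERBB2 was 55.9 and 69.3 CPM in shNSi and 42.8 and 47.3 CPM in shDAP5 cultures, with a log2 change of −0.44 (SE 0.19, adjusted p = 0.368). HBEGF was 85.8 and 105 CPM against 52.4 and 80.3 CPM, a log2 change of −0.49 (SE 0.21, adjusted p = 0.374). TGFA was 61.5 and 62.3 CPM against 56.3 and 51.5 CPM. For ERBB2, HBEGF and TGFA the pairs did not overlap, but 2 cultures a side cannot give an exact permutation p below 0.333. The share of all genes whose pairs did not overlap was not counted, in this or any later comparison. Pairs without overlap are therefore given as a description. The log2 changes of TGFA, ERBB3, EREG, NRG1 and ERRFI1 lay between −0.17 and 0.28, and none passed.

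The second comparison concerned heavy polysomes, the pool with many ribosomes per mRNA, which the study calls well translated. EGFR fell from 233 and 339 CPM in the shNSi cultures to 83.9 and 67.2 CPM in the shDAP5 cultures, in raw counts from 5395 and 7532 to 2402 and 1688. Both shDAP5 libraries lay far below both shNSi libraries. The log2 change was −1.84 (SE 0.35, adjusted p = 1.57e-05), or 0.279 of the control level, and it ranked 351st from the lowest of 14270 genes. EGFR was 1 of 8 members tested that passed, against 30.9% of all genes in either direction and 16.7% lower, so the count of members is not above the background. The call was lost without shDAP5 culture 2 (log2 change −1.70, adjusted p = 0.0993), when 2 genes in all passed, and it was lost with the shNSi moderate pool as the control (−0.21, adjusted p = 1.00).
ERBB2, the other well-expressed receptor, was 62.2 and 96.5 CPM in shNSi and 43.7 and 57.9 CPM in shDAP5 heavy polysomes, pairs that did not overlap but lay close together. Its log2 change of −0.56 (SE 0.33, adjusted p = 0.180) did not pass, and the estimate with 2 SE on each side ran from −1.22 to 0.09. ERBB3 was 6.18 and 5.13 CPM against 4.82 and 4.97 CPM, a log2 change of −0.14 (SE 0.40, adjusted p = 0.816).
No ligand passed. EREG had the highest change of the members, 0.59 (SE 0.33, adjusted p = 0.165), with 23.1 and 32.1 CPM in shNSi and 51.7 and 26.9 CPM in shDAP5 cultures, so the pairs overlapped and the estimate rested on shDAP5 culture 1. The log2 change was 0.05 for HBEGF (SE 0.33), 0.08 for TGFA (SE 0.33), 0.26 for NRG1 (SE 0.33) and 0.38 for ERRFI1 (SE 0.35), and for each of them the pairs overlapped.

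A ratio of 2 members within the same library does not depend on how libraries are scaled against each other. The log2 ratio of EGFR to ERBB2 counts in heavy polysomes was 1.91 and 1.81 in the shNSi cultures and 0.94 and 0.21 in the shDAP5 cultures, a difference of −1.28 (exact permutation p = 0.333, two-sided). In total mRNA the same ratio was 1.59 and 0.76 in shNSi and 0.60 and 1.34 in shDAP5 cultures, a difference of −0.21 with overlapping pairs (exact permutation p = 0.667). The ratio of EGFR to HBEGF gave a like picture, with 1.32 and 1.70 against 0.32 and −0.92 in heavy polysomes (difference −1.81, exact permutation p = 0.333) and a difference of −0.13 in total mRNA. Against ERBB3 the difference was −1.70 in heavy polysomes and −0.94 in total mRNA. The ratio of EGFR to ERBB2 in the shNSi moderate pool was 0.86 and −0.25, a pair that overlapped that of shDAP5 heavy polysomes.

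Light polysomes hold mRNAs with few ribosomes, which the study calls poorly translated. In this pool 0 of 8 members passed, as did 0% of all genes with edgeR (0 of 15529). Of all genes, 1330 had an unadjusted p under 0.05 with edgeR, and DESeq2 called 105. EGFR was 86.6 and 52.6 CPM in shNSi and 37.5 and 54.2 CPM in shDAP5 light polysomes, overlapping pairs with a log2 change of −0.58 (SE 0.33, adjusted p = 0.638). HBEGF had the lowest value, −0.95 (SE 0.39, adjusted p = 0.559), from 63.4 and 134 CPM to 38.5 and 61.5 CPM. It passed with the shNSi moderate pool in place of light polysomes as the control (−1.47, adjusted p = 0.0199) and without shNSi culture 1 (−1.40, adjusted p = 1.68e-08), so its call turned on which control libraries were used. Without shNSi culture 1 ERBB2 and ERRFI1 passed as well, and without shNSi culture 2 EREG and EGFR did, the latter at −0.91 (adjusted p = 0.00197). Of all genes, 28.9% passed without shNSi culture 1, 4.82% without shNSi culture 2 and 25.5% with the moderate pool. The other 6 members tested lay between −0.36 and 0.52.

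**Figure D2:**
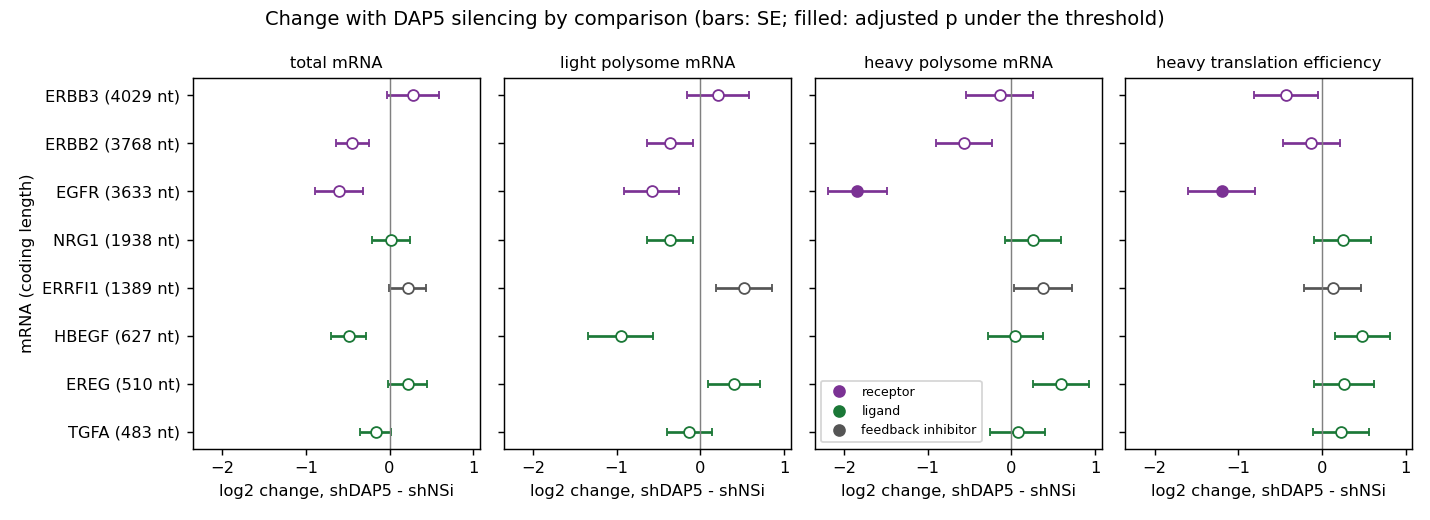
Log2 change from shNSi to shDAP5 (x axis) of the 8 members tested, ordered by coding length (y axis), in total mRNA, light polysomes, heavy polysomes and heavy translation efficiency, with SE bars and filled points where the adjusted p was below 0.05. The filled points are EGFR in heavy polysomes (−1.84) and EGFR in heavy translation efficiency (−1.20).

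Translation efficiency, the ratio of polysome to total mRNA within a culture, asks whether an mRNA moved on the gradient beyond the change in its amount. For heavy polysomes the log2 ratio of EGFR was 0.47 and 1.53 in the shNSi cultures and 0.37 and −0.83 in the shDAP5 cultures. The pairs did not overlap, but shNSi culture 1 and shDAP5 culture 1 differed by little, and the spread within each cell line was wide. The change was −1.20 (SE 0.40, adjusted p = 0.0460). EGFR was again 1 of 8 members tested that passed, where 13.1% of genes passed in either direction and 8.23% passed as lower. The call was lost without shNSi culture 2 (−0.70, adjusted p = 0.666), without shDAP5 culture 2 (−0.61, adjusted p = 0.392), with library sizes in place of TMM (−0.99, adjusted p = 0.184) and with limma after quantile normalization (−0.98, adjusted p = 0.143). It was also lost with the replicate number as a block, with the shNSi heavy and moderate pools summed and without a term per culture. The same held with offsets for coding or mRNA length. With the shNSi moderate pool in place of heavy polysomes the direction of the EGFR change turned, to 0.42, and it did not pass.
ERBB2 had log2 ratios of 0.15 and 0.48 in shNSi and 0.03 and 0.29 in shDAP5 cultures, and its change was −0.13 (SE 0.34, adjusted p = 0.836), with 2 SE on each side reaching from −0.80 to 0.54. ERBB3 had 0.38 and 0.52 against −0.10 and 0.09, pairs that did not overlap, and a change of −0.43 (SE 0.39, adjusted p = 0.476).
The ligands and ERRFI1 all had estimates above 0, none of which passed. HBEGF had the highest, 0.48 (SE 0.33, adjusted p = 0.338), with log2 ratios of 0.12 and −0.0034 in shNSi and 0.36 and 0.66 in shDAP5 cultures, pairs that did not overlap. For EREG the change was 0.26 (SE 0.36), for NRG1 0.25 (SE 0.34, with log2 ratios of 0.11 and −0.09 against 0.15 and 0.32 that did not overlap), for TGFA 0.23 (SE 0.34) and for ERRFI1 0.13 (SE 0.34). The median change over all 15374 genes tested was 0.09, so the values of TGFA, NRG1, EREG and ERRFI1 lay within 1 SE of the middle of all genes.

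Light translation efficiency showed no member past the threshold, with 0% of all genes called by edgeR (833 of 15967 at an unadjusted p under 0.05, and 0 by DESeq2). The log2 ratio of light to total EGFR mRNA was −0.96 and −1.16 in shNSi and −0.79 and −1.14 in shDAP5 cultures, and the changes of the 8 members lay between −0.37 and 0.33. With the shNSi moderate pool in place of light polysomes HBEGF and TGFA passed this test, as did 27.5% of all genes, and without shNSi culture 1 HBEGF did, with 12.3% of all genes. The heavy-to-light ratio, which sets the polysome pools against each other without the total libraries, was 1.43 and 2.69 for EGFR in shNSi and 1.16 and 0.31 in shDAP5 cultures, pairs that did not overlap, with a change that did not pass, −1.37 (SE 0.48, adjusted p = 0.0824). Without shNSi culture 1 it passed, at −1.99 (adjusted p = 0.000411). None of the 8 members passed, against 6.75% of all genes. HBEGF lay at the other end of the members with 0.78 (SE 0.42, adjusted p = 0.258), with 0.56 and −0.36 in shNSi and 0.80 and 1.05 in shDAP5 cultures, and it passed with the moderate pool as the control (1.40, adjusted p = 0.00632), with light and moderate summed (1.06, adjusted p = 0.0467) and without shNSi culture 1 (1.25, adjusted p = 0.0340). In shDAP5 cultures the mean log2 heavy-to-light ratio of HBEGF was 0.92 and that of EGFR 0.73, where the shNSi cultures had 0.10 and 2.06.

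**Figure D3:**
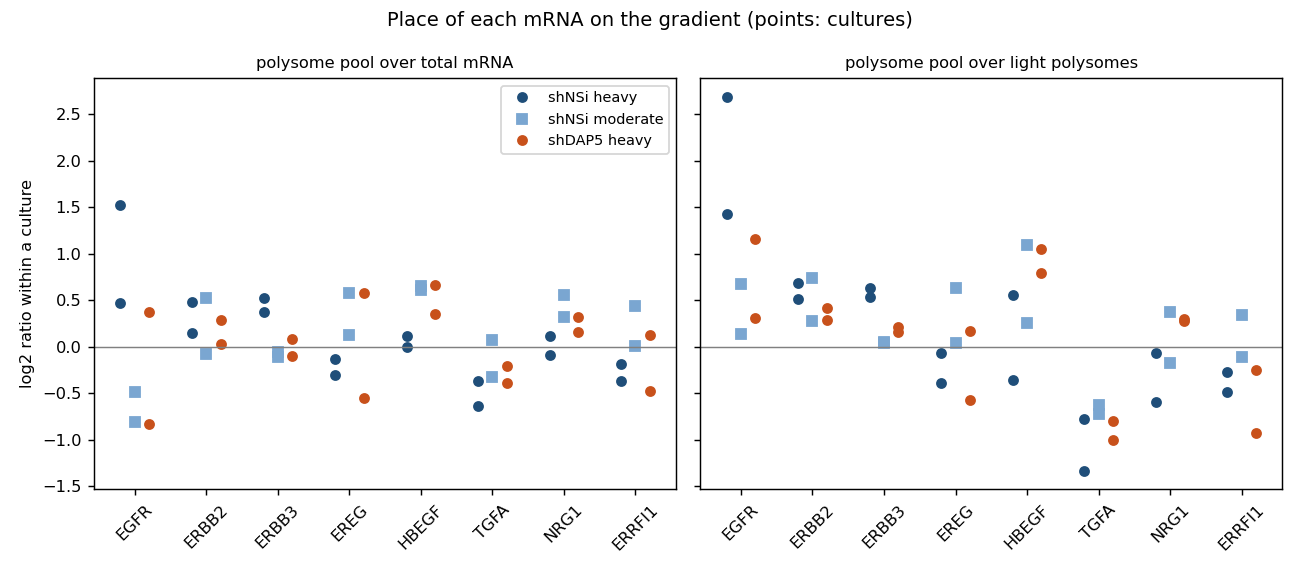
Log2 ratio within each culture (y axis) of the heavy or moderate pool to total mRNA (left) and to light polysomes (right) for the 8 members with enough counts (x axis), with dark blue circles for shNSi heavy, light blue squares for shNSi moderate and orange circles for shDAP5 heavy. For EGFR the shDAP5 heavy points (0.37 and −0.83 over total mRNA) lie below the shNSi heavy points (0.47 and 1.53) and on either side of the shNSi moderate points (−0.81 and −0.49).

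The receptors have longer coding sequences than the ligands, although the EREG mRNA is longer than that of ERBB2, and length moved with the change over the whole transcriptome. Across 12457 genes the change in heavy translation efficiency fell with coding length (Spearman's rho −0.709) and mRNA length (rho −0.549), and less with the length of the 3′ UTR (rho −0.218), correlations across genes measured in the same 8 libraries. All 3 receptors have coding sequences between percentiles 90.8 and 92.9 of these genes and were below 0, and EREG, HBEGF and TGFA lie between percentiles 7.71 and 13.7 and were above 0. NRG1, at percentile 67.9, and ERRFI1, at percentile 49.0, were also above 0. Once a smooth trend on coding length was taken out of each library, the change in heavy translation efficiency was −0.45 for EGFR (adjusted p = 0.333), 0.64 for ERBB2 and 0.35 for ERBB3, and −0.54 for TGFA and −0.48 for EREG, none of which passed. EGFR was the lowest receptor with and without this step, and ERBB2 and ERBB3 lay above 0 with it. In heavy polysome mRNA EGFR kept its call after the same step, at −1.05 (adjusted p = 0.0187), and also with a trend on the length of the whole mRNA, at −1.21. With the trend on mRNA length its value in heavy translation efficiency was −0.60 and did not pass. The part of length itself in the EGFR result was not tested beyond these fits.

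**Figure D4:**
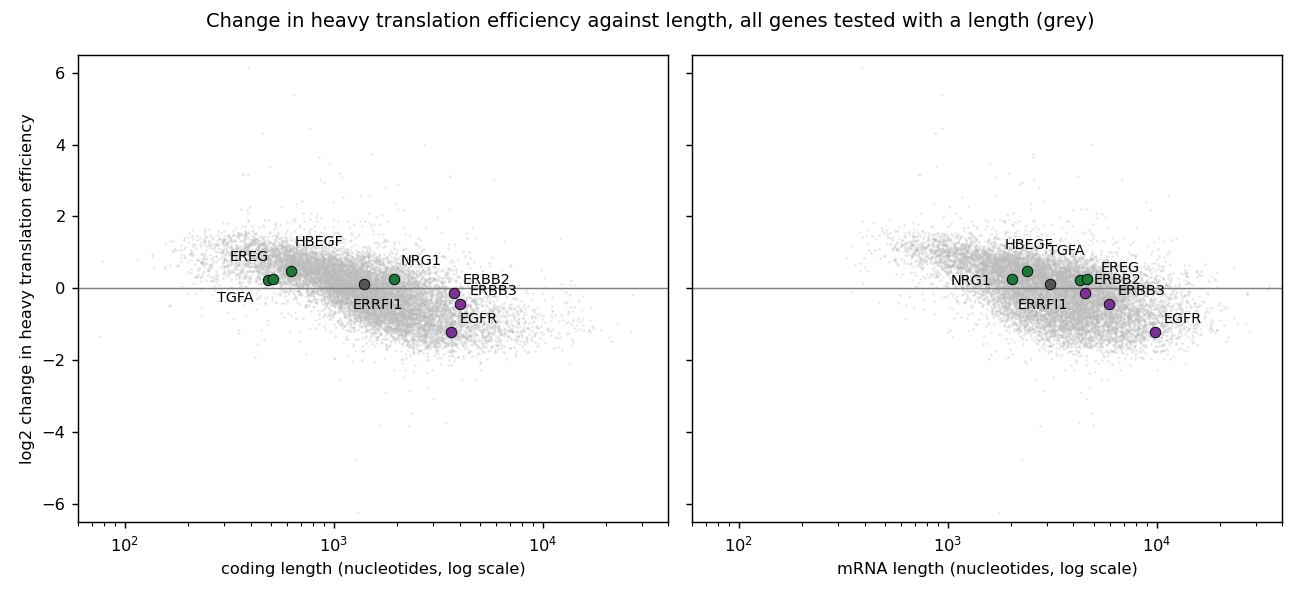
Log2 change in heavy translation efficiency from shNSi to shDAP5 (y axis) against coding length (left) and mRNA length (right) in nucleotides on a log scale, with the 12457 genes that have an annotated length in grey, receptors in purple, ligands in green and ERRFI1 in dark grey. The change falls with coding length (rho −0.709), and EGFR at −1.20 lies below ERBB2 (−0.13) and ERBB3 (−0.43), whose coding sequences are as long.

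Over the 14 libraries the mRNA whose log2 CPM followed that of EGFR most closely, among 9386 genes with a mean of at least 10 CPM, was NOTCH2, a receptor of another signalling family (Pearson's r 0.988). The first 5 genes by this measure had r from 0.974 to 0.988 and coding sequences of 5655 to 14946 nucleotides, all longer than that of EGFR. All genes share the fractions, cultures and depth of these libraries, and the correlation is given as a description.

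Further genes of the pathway, taken as a list of 48 (other receptors and ligands, ligand sheddases, adaptors, and genes of receptor ubiquitination and endocytosis), were counted in the same tests. Of the remaining family members, ERBB4 had at most 5 counts in a library, NRG3 had none and NRG4 at most 6. These 3 were not tested after the filter on low counts. BTC, with 6 to 29 counts per library, was not tested in heavy polysomes. In total and light polysome mRNA 0 of the 45 genes tested passed. In heavy polysomes 12 of 44 were lower and 3 higher, where 16.7% of all genes passed as lower and 30.9% in either direction, with a list median of −0.46 against 0.09 for all genes. In heavy translation efficiency 5 of 45 were lower and 0 higher, where 8.23% of all genes passed as lower and 13.1% in either direction, with a median of −0.31 against 0.09. The share of the list that passed in heavy translation efficiency was thus near that of all genes.
The 2 sheddases best known for releasing EGFR ligands were among the 5. ADAM10 was 114 and 172 CPM in shNSi and 35.3 and 30.2 CPM in shDAP5 heavy polysomes, and its heavy translation efficiency changed by −1.58 (SE 0.35, adjusted p = 0.00750). ADAM17, which cleaves TGFA, HBEGF and AREG, was 46.5 and 86.8 CPM against 24.3 and 17.5 CPM and changed by −1.15 (SE 0.35, adjusted p = 0.0275). The shDAP5 libraries lay below the shNSi libraries for both genes. The coding sequences of ADAM10 and ADAM17 have 2247 and 2475 nucleotides, shorter than those of the receptors, and the ADAM10 mRNA has 11431 nucleotides in all.
PLCG1, the phospholipase that docks on activated EGFR, changed by −1.26 (SE 0.35, adjusted p = 0.0175), and USP8, a deubiquitinase that acts on internalized EGFR, by −1.25 (SE 0.36, adjusted p = 0.0189). HGS, which sorts ubiquitinated receptors at endosomes, was the fifth, at −1.06 (adjusted p = 0.0335). The 3 genes that were higher in heavy polysomes, named after their values were seen, were NRG2 (1.85, with 5 to 32 counts per library), RNF41 (0.89), a ubiquitin ligase for ERBB3, and AP2M1 (0.89), a subunit of the clathrin adaptor, whose adjusted p rounds to 0.05. The counts for the list depended on the libraries. With the shNSi moderate pool in place of heavy polysomes the change in heavy translation efficiency turned to 0.28 for ADAM10, 0.15 for ADAM17, 0.90 for PLCG1, 0.29 for USP8 and 0.99 for HGS, none of which passed. In heavy polysomes with that pool as the control RNF41 was −0.0058 and AP2M1 −0.31, and the calls of NRG2, RNF41 and AP2M1 were each lost when any 1 culture was left out. In heavy translation efficiency none of its genes passed without shNSi culture 2 or without shDAP5 culture 2, where 0.025% and 0.27% of all genes passed, and 18 passed without shDAP5 culture 1, where 28.5% of all genes did.

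**Figure D5:**
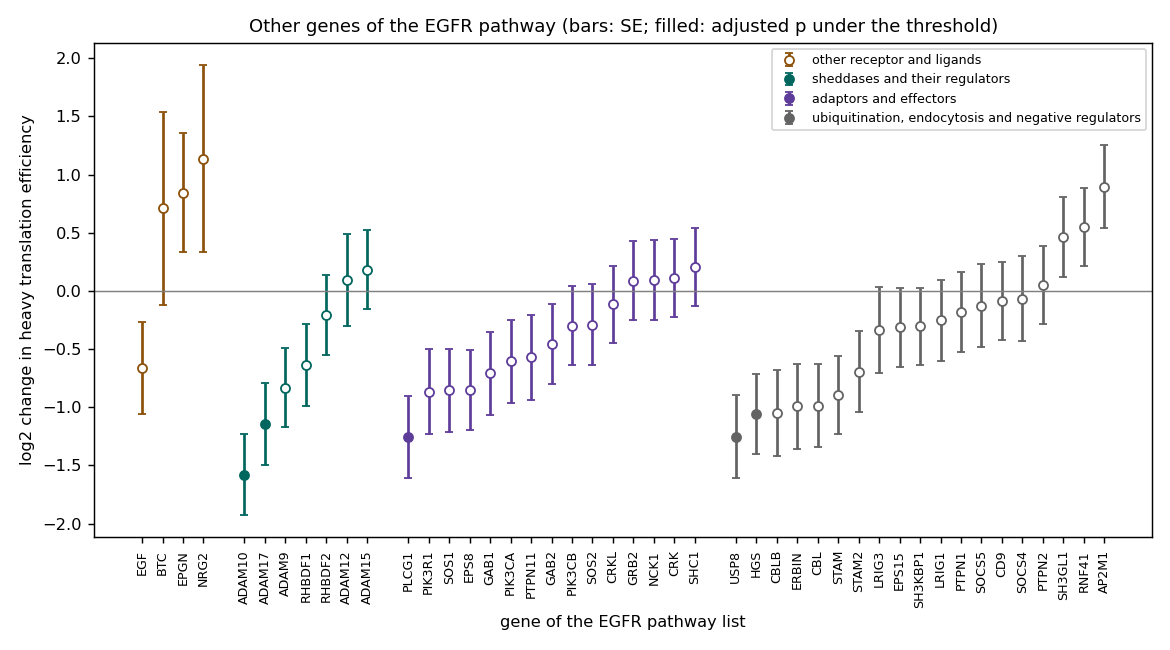
Log2 change in heavy translation efficiency (y axis) with SE bars for the 45 tested genes of the pathway list (x axis), grouped by function and sorted within each group, filled where the adjusted p was below 0.05. The filled points, all below 0, are ADAM10, ADAM17, PLCG1, USP8 and HGS.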

How the data were processed

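RNA sequencing of total and polysome mRNA was analysed from the authors' deposited read counts per gene symbol, whole numbers without normalization. The submitters' processing notes name STAR 2.6.0a, limma and the build hg19. The name of the deposited table holds the words featurecounts and rev, and what these mean for strand and how shared reads were counted are not given in the sources used here. Each cell line had 2 cultures, run as independent experiments. Genes were filtered with filterByExpr, TMM scaled and compared in edgeR 4.0.16 (R 4.3.3) by the quasi-likelihood F test, fraction by fraction, with Benjamini-Hochberg adjustment over all genes tested and a threshold of 0.05. A change in translation efficiency was the fraction-by-shRNA interaction over 8 libraries, given a term per culture. CPM shown were scaled over all 14 libraries, and log2 ratios used a prior count of 2. Lengths came from GENCODE v29 (GRCh38), matched by symbol for 37619 of 58434 symbols, so no coordinate refers to the build of the counts. Library totals of 25899838 to 30795910 counts limit ERBB3 and AREG, and 2 cultures limit every member.

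The members and the pathway list were chosen with earlier results of these data known. Named were all 9 members, EIF4G2, the genes most like EGFR (only the first by name), and the list's lowest and highest 4 changes past the threshold in heavy translation efficiency. Only 5 genes of the list passed there, all lower, so all 5 are named. Outside this rule, NRG2, RNF41 and AP2M1 were named after their values in heavy polysomes were seen. ERBB4, NRG3, NRG4 and BTC were named as not tested after the filter, BTC in heavy polysomes only. The test was also run on simulated counts, whose outcome is not given here and is not used as support. Alternatives were DESeq2 1.42.0, library size without TMM, limma 3.58.1 on quantile-normalized log2(CPM + 1), no filter, offsets fitted by loess on coding length, the replicate number as a block, the shNSi moderate pool in place of or summed with a neighbouring pool, no culture term, and each culture left out. Offsets for mRNA length and a block with crossed numbers were added after the data were seen. Same-numbered cultures did not deviate together, with correlations from −0.20 to 0.05.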

Additional observations from a re-analysis of the deposited data

Results flagged for a closer look

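No EGFR family member was flagged. For 4 of the 45 genes tested from the pathway list the change with DAP5 silencing differed between heavy and light polysomes by the test of the heavy-to-light ratio in edgeR. The change of this ratio was −1.86 (SE 0.41, adjusted p = 0.0185) for ADAM10, whose log2 change was −2.05 in heavy and −0.26 in light polysomes. It was −1.66 (SE 0.41, adjusted p = 0.0241) for USP8, with −1.06 in heavy and 0.47 in light polysomes. It was −1.58 (SE 0.43, adjusted p = 0.0350) for ADAM17 and −1.41 (SE 0.42, adjusted p = 0.0484) for PLCG1. Over all genes 6.75% passed this test. With library sizes and with the replicate block 3 genes of the list passed in each, so not all 4 calls held there. All 4 calls were lost with limma, with no culture term, with coding length offsets and without shDAP5 culture 2, where the values were −1.59 for ADAM10, −1.30 for USP8, −1.39 for ADAM17 and −1.14 for PLCG1. Without shNSi culture 2 USP8 (−1.43), ADAM17 (−1.01) and PLCG1 (−1.09) were lost, and without shDAP5 culture 1 PLCG1 (−1.71).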

How the results depend on the processing

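With 2 cultures per cell line the calls moved with single libraries and with the pool taken as the control, and the causes were not tested. The EGFR change in heavy polysomes kept its direction under every alternative run and passed under all but 2 of them. Its change in heavy translation efficiency passed with DESeq2, with no filter, with crossed numbers and without culture 1 of either cell line, and under no other alternative. Leaving out culture 2 of either cell line brought the EGFR value in heavy translation efficiency nearer to 0, by over 1.5 times. ERBB3 had 92 to 143 counts per library and AREG 0 to 12, which limits the precision of both. The heavy-to-light ratio of EGFR lay on either side of the threshold, depending on the setting. The labels and the correlations of same-numbered cultures do not pair the cultures, and a fit with a replicate block gave −1.20 for EGFR in heavy translation efficiency, with an adjusted p of 0.0823.

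For EGFR in heavy polysomes the values without a pass were −0.21 with the shNSi moderate pool as control and −1.70 without shDAP5 culture 2, and the leave-one-out range was −2.17 to −1.61. In heavy translation efficiency EGFR did not pass at −0.99 with library sizes, −0.98 with limma, −0.45 with coding length offsets, −0.60 with mRNA length offsets, −0.44 with heavy and moderate summed and −1.26 with no culture term, it turned to 0.42 with the moderate pool, and its leave-one-out range was −1.80 to −0.61. EGFR passed in total mRNA with no filter (−0.63; leave-one-out −1.11 to −0.24). In the heavy-to-light ratio it passed with DESeq2 (−1.41), no filter (−1.41), light and moderate summed (−1.26), crossed numbers (−1.37) and without shNSi culture 1 (−1.99; leave-one-out −1.99 to −0.73). In light polysomes its leave-one-out range was −0.91 to −0.18.

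The values that changed sign, among the members and the pathway genes recomputed in heavy polysomes and heavy translation efficiency, were as follows. In heavy polysomes HBEGF and TGFA were −0.033 and −0.0062 with DESeq2 and −0.044 and −0.011 with no filter, HBEGF was −0.023 with the replicate block, and ERBB3 was 0.10 with library sizes. With coding length offsets ERBB2 was 0.30, ERBB3 0.68, EREG −0.21, HBEGF −0.68 and TGFA −0.77, and with mRNA length offsets ERBB3 was 0.30 and HBEGF −0.11. With heavy and moderate summed ERBB3 was 0.11, HBEGF −0.32, TGFA −0.17 and NRG1 −0.0067. With the moderate pool as control ERBB3 was 0.36, EREG −0.0054, HBEGF −0.58, TGFA −0.35, NRG1 −0.20, ERRFI1 −0.18, PLCG1 0.62, USP8 0.48, HGS 0.58, RNF41 −0.0058 and AP2M1 −0.31. In heavy translation efficiency ERBB2 was 0.087 with library sizes, and with coding length offsets ERBB2 was 0.64, ERBB3 0.35, EREG −0.48, HBEGF −0.17 and TGFA −0.54. ERBB2 was 0.17 and NRG1 −0.0015 with mRNA length offsets, and ERBB2 was 0.012 and ERRFI1 −0.079 with heavy and moderate summed. With the moderate pool ERBB3 was 0.077, EREG −0.34, HBEGF −0.13, TGFA −0.18, NRG1 −0.21, ERRFI1 −0.40, ADAM10 0.28, PLCG1 0.90, USP8 0.29, ADAM17 0.15 and HGS 0.99. Leave-one-out ranges that crossed 0 in heavy polysomes were −0.037 to 0.97 for EREG, −0.49 to 0.37 for HBEGF, −0.16 to 0.21 for TGFA, −0.068 to 0.55 for NRG1 and −0.18 to 0.80 for ERRFI1. In heavy translation efficiency they were −0.30 to 0.014 for ERBB2, −0.31 to 0.82 for EREG and −0.18 to 0.42 for ERRFI1.

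The number of all genes that passed moved widely. In total mRNA, against 53, it was 273 with DESeq2, 18 with library sizes, 5 with limma, 577 with no filter, 11 with coding length offsets, 365 with the replicate block and 0 to 386 with a culture left out. In heavy polysomes, against 4414, it was 1472 with coding length offsets, 2518 with mRNA length offsets, 421 with heavy and moderate summed, 50 with the moderate pool and 2 to 3559 with a culture left out. In light polysomes, against 0, it was 105 with DESeq2, 244 with no filter, 2 with coding length offsets, 130 with the replicate block, 3940 with the moderate pool, 114 with light and moderate summed and 2 to 4678 with a culture left out. In heavy translation efficiency, against 2012, it was 0 with library sizes, with heavy and moderate summed, with the moderate pool and with no culture term, 408 with limma, 528 with coding length offsets, 688 with the replicate block and 4 to 4515 with a culture left out. In light translation efficiency, against 0, it was 3 with no filter, 1 with the replicate block, 4367 with the moderate pool, 454 with light and moderate summed and 0 to 2030 with a culture left out. For the heavy-to-light ratio, against 1072, it was 1965 with DESeq2, 1637 with library sizes, 0 with limma and with no culture term, 58 with coding length offsets, 3762 with the moderate pool, 2474 with light and moderate summed and 2 to 2929 with a culture left out. Crossing the replicate numbers gave 71 genes in total mRNA, 4133 in heavy translation efficiency and 2238 in the heavy-to-light ratio.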
